A study of Mus musculus with 2 samples.

Results

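The ATP-binding cassette (ABC) transporters were described in the sigmoid colon, a distal segment of the large intestine. Members were the protein-coding genes of the mouse annotation whose symbol is Abc followed by a letter from a to g and a number. The rule found 50 members among 21474 protein-coding genes and 43346 Ensembl genes in all, and every member was listed in both libraries. They fall into 7 subfamilies by letter: 16 in A, 10 in B, 10 in C, 4 in D, 1 in E, 3 in F and 6 in G, spread over 18 chromosomes. Polyadenylated RNA came from whole tissue of 1 adult female C57BL/6J mouse aged 10 weeks, with no treatment named in the labels. The RNA was extracted with a kit for lipid-rich tissue and made into 2 technical libraries, numbered 1 and 2 as in the labels. The second dates from May 2015 and had no place in the original publication. These libraries form 1 group, so no conditions were compared. Each ± is an SD over n = 2 technical libraries and covers no difference between mice.

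ABC proteins bind and hydrolyse ATP in a conserved nucleotide-binding domain, and most use it to move a substrate across a membrane. In the gut, several sit in the epithelial membrane and pump drugs, conjugates, bile salts and sterols out of the cell, while others serve mitochondria, peroxisomes or lysosomes in every cell. Proteins of subfamilies E and F keep the nucleotide-binding domains but have no membrane domain, and they work with ribosomes.

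The coding sequence of the Walker A motif, the glycine-rich loop that holds the phosphates of ATP, is shown because it is the stretch the family shares and because it lets members with low and high ratios between the libraries be compared base by base. The motif was found in 48 of the 50 members, and in 2.13% of the 21901 protein-coding genes with a coding sequence. It was not matched in the coding sequences used for Abcg3 and Abcg8. Each line gives 60 coding bases from GENCODE M21 transcripts on GRCm38, 5′ to 3′ on the coding strand, with the 24 bases of the motif in capitals. The first 3 are the most abundant members, Abcb1b is the near copy of Abcb1a, the next 2 had ratios of library 2 to library 1 among the lowest, and the last 3 had the highest ratios among members with counts in both libraries.
Abcb1a: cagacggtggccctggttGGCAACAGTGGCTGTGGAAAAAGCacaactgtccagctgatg
Abcg2: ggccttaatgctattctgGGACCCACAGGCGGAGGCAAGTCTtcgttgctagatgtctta
Abcd3: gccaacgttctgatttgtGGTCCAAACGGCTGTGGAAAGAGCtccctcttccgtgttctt
Abcb1b: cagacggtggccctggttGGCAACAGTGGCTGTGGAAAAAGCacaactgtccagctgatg
Abca5: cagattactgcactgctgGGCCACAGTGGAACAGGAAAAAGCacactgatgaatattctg
Abce1: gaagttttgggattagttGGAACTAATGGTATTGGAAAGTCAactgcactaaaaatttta
Abcc10: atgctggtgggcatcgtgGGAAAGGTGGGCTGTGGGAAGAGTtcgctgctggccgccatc
Abca2: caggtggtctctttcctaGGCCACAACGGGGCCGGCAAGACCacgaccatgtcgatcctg
Abca7: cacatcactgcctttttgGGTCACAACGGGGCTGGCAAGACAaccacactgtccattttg

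The motif bases lie at chr5:8702207-8702230 (+) in Abcb1a, chr6:58663648-58663671 (+) in Abcg2, chr8:79701828-79701851 (-) in Abce1, chr17:46316592-46316615 (-) in Abcc10 and chr2:25439216-25439239 (+) in Abca2. The printed stretches of Abcb1a and Abcb1b differed at 0 of 60 bases. G and C made up 37.5% of the 24 motif bases of Abce1 and 75.0% of those of Abca2, the lowest and highest of the 9 shown. Within the motif alone GC content did not follow the ratio in every member: it was 66.7% in Abcg2, 58.3% in Abcd3 and also 58.3% in Abcc10. Abce1 and Abca2 went with the ratio, as did Abca5 at 54.2% and Abca7 at 62.5%. No relation between motif GC content and the ratio was tested. The whole coding sequence was 40.9% G and C in Abce1 and 57.2% in Abca2. At the last position of each codon, where many changes leave the protein the same, GC content was 37.1% in Abce1 and 71.4% in Abca2.

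Library 1 held 25843064 expected counts and library 2 held 20681574. Mitochondrially encoded genes held 24.1% of all counts in library 1, with a 95% Wilson interval of 24.0 to 24.1%, but 5.59% in library 2, with an interval of 5.58 to 5.60%. They took 44.2 and 12.6% of TPM (transcript abundance corrected for length and library size), and nuclear protein-coding genes took 31.3 and 75.3%. Levels are therefore also given on a nuclear scale, on which nuclear protein-coding genes sum to the same total, that of all TPM values, in each library. The limit set by a count of 0 was 3 counts, which after scaling to depth (CPM) is 0.116 for library 1 and 0.145 for library 2. These intervals and limits describe counting error and nothing else. Markers of the labelled tissue were present in both libraries: the 8 colonocyte markers summed to 3908 and 16120 TPM and the 7 goblet cell markers to 4632 and 28589 TPM.

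A drug efflux pump led the family, followed by a second exporter and a peroxisomal importer. Members held 0.183% of all counts in library 1, with a 95% Wilson interval of 0.181 to 0.184%, and 0.242% in library 2, with an interval of 0.240 to 0.244%. Their levels summed to 506 TPM in library 1 and 910 TPM in library 2 (708 ± 285). On the nuclear scale the order was the other way, with 1615 and 1207. With mitochondrially encoded genes alone left out of the total, a value added after seeing the data, the sums were 906 and 1041. Leaving out mitochondrially encoded genes alone therefore did not turn the order of the libraries.

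Abcb1a, the drug efflux pump P-glycoprotein (chr5:8660077-8748575, GRCm38), was the most abundant member of both libraries. It stood at 159.55 TPM in library 1 and 258.66 TPM in library 2 (209 ± 70.1). That was 31.5 and 28.4% of the family's TPM, and 1.77 and 2.68 times the level of the next member. Among nuclear protein-coding genes it stood at percentile 98.5 and 98.0.

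Abcg2, a drug and urate exporter known as breast cancer resistance protein (chr6:58584523-58695676), was at 82.70 and 96.42 TPM (89.6 ± 9.70). Abcd3, the peroxisomal membrane protein that imports branched-chain and other fatty acids (chr3:121758774-121815302), was at 90.09 and 81.34 TPM (85.7 ± 6.19). These neighbours in the order did not differ beyond their spread, and they changed places between the libraries. Abcc3, a basolateral exporter of bile salts and glucuronide conjugates (chr11:94343295-94392997), ranked 9 in library 1 with 6.94 TPM and 4 in library 2 with 80.21 TPM. Abce1, which splits ribosomes after termination (chr8:79683462-79711740), ranked 4 and 7 with 51.87 and 29.61 TPM (40.7 ± 15.7). Its spread overlapped that of Abcc3 (43.6 ± 51.8), so their order is not settled by these libraries.

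The 5 most abundant members took 82.2% of the family's TPM in library 1 and 62.7% in library 2. They included Abcb1a, Abcd3, Abcg2 and Abce1 in library 1, and were Abcb1a, Abcg2, Abcd3, Abcc3 and Abcf1 in library 2. Members at 10 TPM or more in both libraries numbered 6 and included Abcb1a, Abcg2, Abcd3, Abce1 and Abcf1. At 1 TPM or more, 24 members (48.0%) were detected in both libraries, against 46.9% of the 21461 nuclear protein-coding genes. Library 2 alone detected 13 further members, library 1 alone detected 0, and 13 were below 1 TPM in both. This split depended on the scale: at 1 or more on the nuclear scale, 30 members were detected in both libraries, 3 in library 1 only, 8 in library 2 only and 9 in neither. At 0.5 TPM, 31 were detected in both. Abca12 (0.98 and 1.03 TPM) and Abcb1b (0.94 and 1.01 TPM) lay close to the threshold in both libraries.

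**Figure D1:**
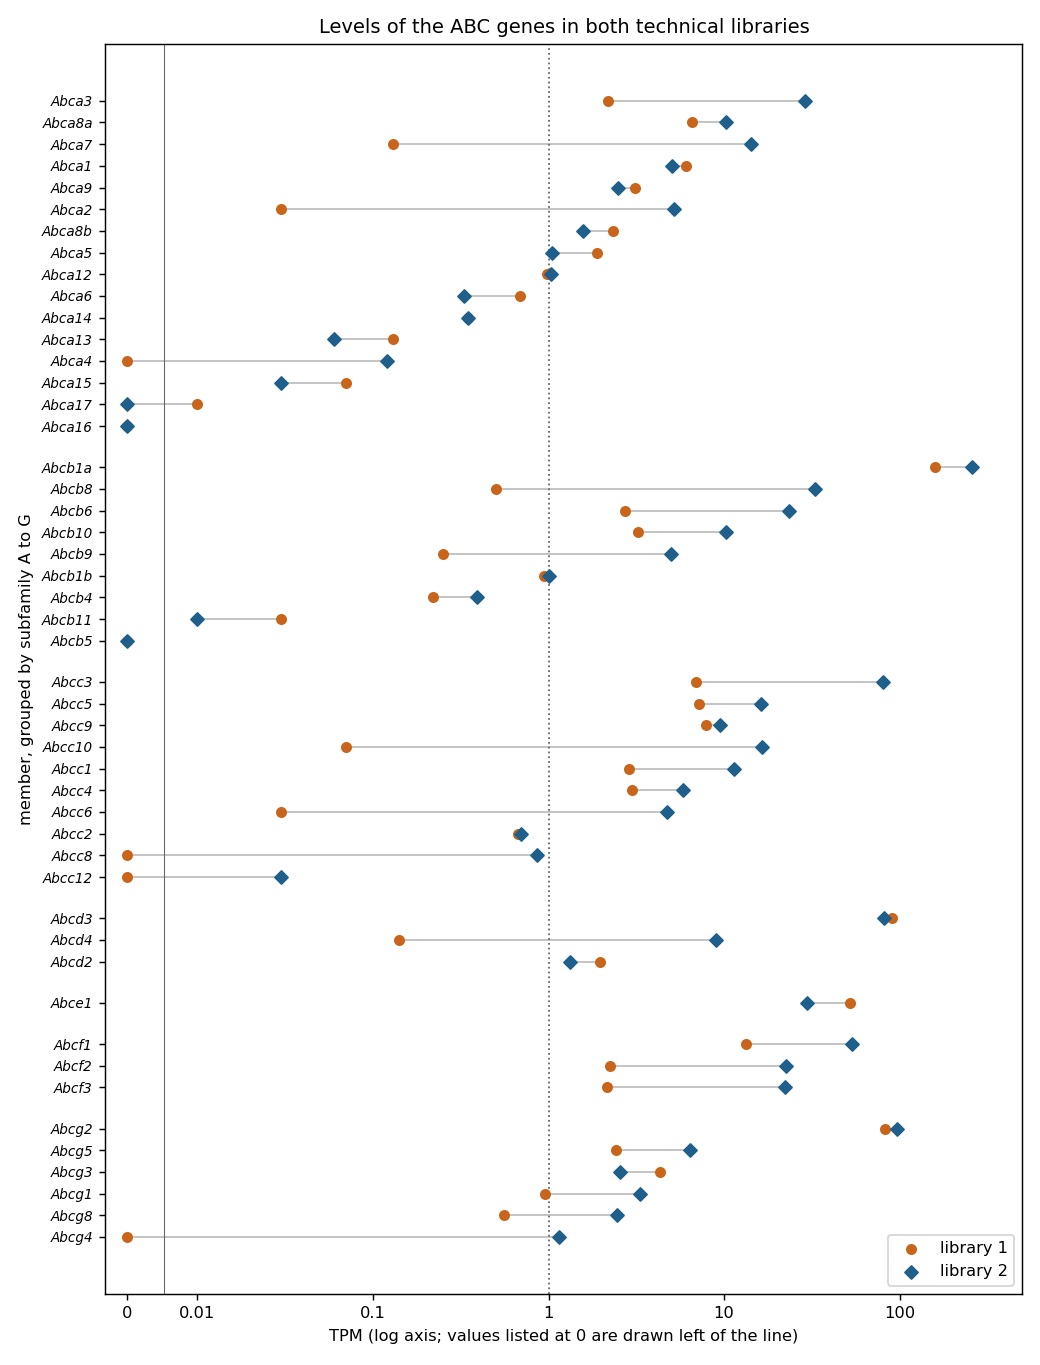
TPM of 48 of the 50 members, grouped by subfamily, on a log axis, with a circle for library 1, a diamond for library 2 and values listed at 0 drawn at the left edge. The dotted line marks 1 TPM. Abcb1a is highest in both libraries, and members such as Abcc10, Abca2 and Abca7 are near the bottom in library 1 and well above it in library 2.

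Subfamily A, mostly lipid transporters, had the most members and a low summed level, 24.5 and 70.7 TPM (47.6 ± 32.7). Abca3, the carrier of surfactant lipids in the lung, was at 2.18 and 28.90 TPM. Abca8a, a lipid transporter of a gene cluster on chromosome 11, was at 6.58 and 10.27 TPM. Abca1, which loads cholesterol onto apolipoproteins, was at 6.05 and 5.07 TPM. On this scale Abca3 was high only in library 2. On the nuclear scale Abca1 was at 19.3 and 6.73 and Abca8a at 21.0 and 13.6, both higher in library 1. Abca7, a phospholipid transporter of macrophages and other cells, was at 0.13 and 14.22 TPM, so its level in this tissue rests on library 2. Its other members had means from 0 to 2.79 TPM.

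Subfamily B, which holds P-glycoprotein and mitochondrial transporters, had the highest sum, 199 and 345 TPM (272 ± 103). Its mitochondrial members named here had higher TPM in library 2. Abcb10, an inner-membrane transporter linked to haem synthesis, was at 3.23 and 10.24 TPM. Abcb8, part of a mitochondrial potassium channel complex, was at 0.50 and 32.88 TPM. Abcb6, a porphyrin transporter, was at 2.71 and 23.32 TPM. Abcb8 was thus the lowest of these 3 in library 1 and the highest in library 2.

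Subfamily C, the multidrug resistance proteins and the regulatory subunits of ATP-sensitive potassium (KATP) channels, summed to 28.6 and 146 TPM (87.3 ± 83.0). Abcc1, an exporter of glutathione conjugates, was at 2.86 and 11.43 TPM. Abcc5, an exporter of cyclic nucleotides, was at 7.15 and 16.32 TPM, and Abcc10, a broad drug exporter, was at 0.07 and 16.41 TPM. Abcc9, the sulphonylurea receptor SUR2 of smooth muscle and vessel KATP channels, was at 7.87 and 9.46 TPM (8.67 ± 1.12). By TPM as deposited, Abcc9 lay closer between the libraries than Abcc1, Abcc5 and Abcc10, while on the nuclear scale Abcc5 was closer, at 22.8 and 21.7 against 25.1 and 12.6 for Abcc9. Abcc2, the apical exporter of conjugated bilirubin, was low in both, at 0.67 and 0.70 TPM.

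Subfamily D, the peroxisomal and lysosomal members, summed to 93.2 and 108 TPM (101 ± 10.4), most of it Abcd3. Abcd2, which imports very long-chain fatty acids into peroxisomes, was at 1.97 and 1.33 TPM. Abcd4, which acts in the release of cobalamin (vitamin B12) from lysosomes, was at 0.14 and 9.04 TPM. Abcd2 was thus above Abcd4 in library 1 and below it in library 2.

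Subfamily F, soluble proteins that act in translation, summed to 17.7 and 98.1 TPM (57.9 ± 56.9). Abcf1 was at 13.35 and 53.57 TPM, Abcf2 at 2.23 and 22.42 TPM, and Abcf3 at 2.14 and 22.13 TPM. All 3 were higher in library 2. Subfamily G summed to 90.9 and 112 TPM (102 ± 15.1), most of it Abcg2. Abcg1, a sterol exporter to lipoproteins, was at 0.95 and 3.33 TPM.

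**Figure D2:**
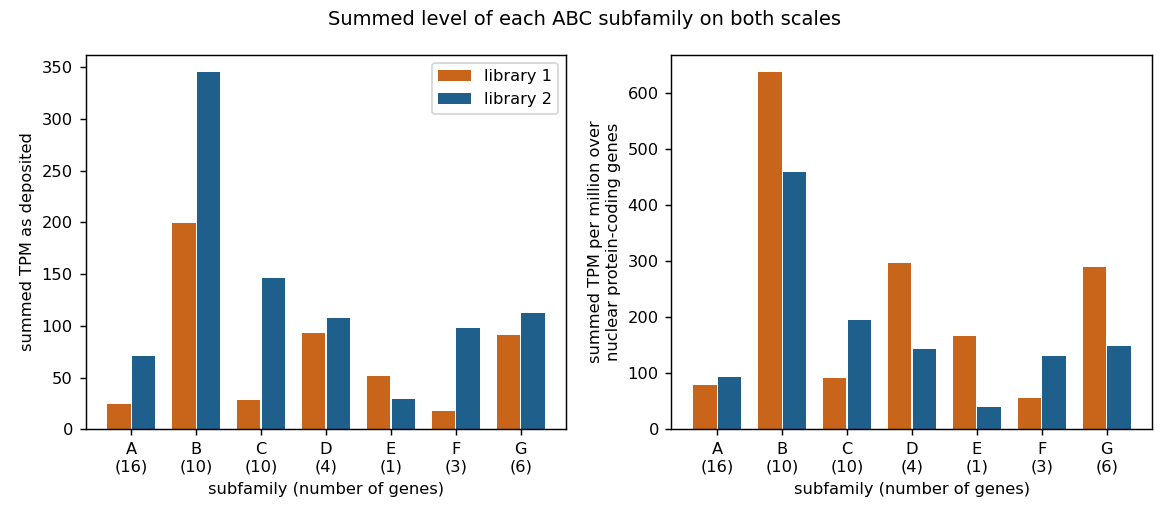
Summed level of each subfamily in library 1 and library 2, with 1 bar for each library, in TPM as deposited (left) and rescaled to nuclear protein-coding genes (right). Subfamily B is highest on both scales, and the bars of B, D and G change order between the scales (199 and 345 TPM against 636 and 458 for B).

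At the bottom of the family, Abca16 and Abcb5 had 0 counts in both libraries. Abcb11, the bile salt export pump of hepatocytes, had 4 and 1 counts, and Abca4, the retinoid transporter of photoreceptors, had 0 and 6. Abca15, Abca17 and Abcc12 also stayed at 4 counts or fewer. Abcb4, the phosphatidylcholine exporter of the bile canaliculus, was at 0.22 and 0.39 TPM. Apart from Abcb4, which had 21 and 22 counts, these members had 6 counts or fewer in each library, against the limit of 3. In whole tissue, fewer cells of a type and less RNA per cell cannot be told apart, for these and for every level given here.

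Abcg5 and Abcg8 encode the partners of the sterolin heterodimer, which exports plant sterols and cholesterol. By the RefSeq starts used here, they are transcribed away from a common start region on chromosome 17. In GENCODE M21, however, Abcg8 (chr17:84676302-84700333, +) begins within Abcg5 (chr17:84658234-84683011, -). The Abcg5 start window is printed because it holds both of these RefSeq starts. It covers chr17:84682962-84683261 (-), from RefSeq on GRCm38.p6, with 250 bases before and 50 after the start of Abcg5. The capitals mark the 209 bases it shares with the window of Abcg8, chr17:84682871-84683170 (+), and 109 bases separate the starts.
Abcg5: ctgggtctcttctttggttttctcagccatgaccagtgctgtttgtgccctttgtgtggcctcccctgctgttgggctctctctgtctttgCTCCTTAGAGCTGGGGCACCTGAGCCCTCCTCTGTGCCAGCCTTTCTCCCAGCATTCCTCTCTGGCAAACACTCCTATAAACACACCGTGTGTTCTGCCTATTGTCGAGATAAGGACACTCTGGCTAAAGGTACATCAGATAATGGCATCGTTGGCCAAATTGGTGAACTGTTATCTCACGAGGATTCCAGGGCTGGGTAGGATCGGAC

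A search of both strands for TATAAA, the core of the TATA box, found it once in the window, on the Abcg5 strand. AGATAA, the core of sites for GATA factors, occurred at 3 places that did not overlap each other or TATAAA, of which 1 was on the Abcg8 strand. All of these lay within the shared bases. Of 32851 windows of the same length, 13.6% held TATAAA and 11.2% held AGATAA. Such matches describe letters and are not evidence of binding. Abcg5 was at 2.41 and 6.39 TPM (4.40 ± 2.81) and Abcg8 at 0.56 and 2.46 TPM (1.51 ± 1.34), so both partners were low and both had the higher TPM in library 2. Exons of Abcg5 and Abcg8 overlap on opposite strands, and the sources do not say whether counting used strand. Reads from the overlap may therefore not have been told apart.

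Close copies limit some other levels. Of the 31-base words in Abcb1a transcripts, 21.7% (1186 words) also occurred in Abcb1b, and these made up 14.8% of the words of Abcb1b. The authors' expected counts gave 99.5 and 99.6% of the reads of this pair to Abcb1a, leaving Abcb1b at 0.94 and 1.01 TPM. The split is uncertain, but the pair sums to 160 and 260 TPM. Other pairs shared less: Abca17 and Abca3 222 words, Abcb1a and Abcb4 220, and Abca8a and Abca8b 183. Abca3 also overlaps D330041H03Rik on the opposite strand, which was at 1.65 and 6.29 TPM.

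The design leaves a comparison of the libraries themselves, which asks how repeatable each member's level was. After scaling by trimmed mean of M values (TMM), 17 members were higher and 15 lower in library 2, 11 were not called, and 7 had too few counts to be tested. A member was called where an exact binomial test with Benjamini-Hochberg adjustment over 15711 genes gave an adjusted p under 0.05 and the counts differed at least 2-fold. Of all genes tested, 36.9% were called higher and 28.1% lower, or 65.0% in either direction, so the counts of members were close to the background. The test compares 2 libraries, not conditions or mice. The median log2 ratio was -0.06 over the 43 members tested and 0.12 over all genes tested.

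The calls differed in direction within most subfamilies. In subfamily A, 8 of 12 tested members were lower and 3 higher. In B, 3 of 8 were higher and 2 lower. In C, 5 of 9 were higher and 0 lower, and 4 were not called. In D, 2 of 4 were higher and 2 lower. Abce1 was lower, all 3 members of F were higher, and in G 1 of 6 was higher and 2 lower. No difference between subfamilies was tested.

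Abcc10 had 9 counts in library 1 and 1063 in library 2, an 83.1-fold difference (log2 6.38, counting SE 0.47), with an adjusted p of 1.32e-237 by the exact binomial test with Benjamini-Hochberg adjustment. Abca2, a lipid transporter of brain myelin and endosomes, had 6 and 565 counts (64.6-fold, log2 6.01, counting SE 0.57). Abca7 had 21 and 1327 counts (45.9-fold, log2 5.52, counting SE 0.31). These are the last 3 members in the list of Walker A sequences. Abcc8, the sulphonylurea receptor SUR1, had 0 and 59 counts and was at least 14.6-fold higher in library 2. Abcg4, a sterol transporter of the brain, had 0 and 39 counts and was at least 9.65-fold higher. Both bounds are against a floor of 3 counts in library 1.

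In the other direction, Abca5, a lysosomal lipid transporter, had 361 counts in library 1 and 121 in library 2 (4.01-fold, log2 -2.00, counting SE 0.15). Abce1 had 4527 and 1546 counts (3.94-fold, log2 -1.98, counting SE 0.04). Abcb1a, with 18420 and 17217 counts, was not called, at 1.44-fold (log2 -0.53, counting SE 0.02). Its missing call rests on the 2-fold minimum, since the ratio was well beyond its counting SE. On this scale the most abundant member was among those with smaller ratios, but that depends on the scaling. By TPM, Abcb1a was at a log2 ratio of 0.70, farther from 0 than Abcg2 (0.22) and Abcd3 (-0.15). The members farthest apart had few counts in library 1, but that count also sets their ratio. Few counts did not always go with a large ratio: Abcb4 (21 and 22 counts) was at 1.29-fold (log2 -0.36, counting SE 0.44) and was not called. Abca14 (12 and 8 counts) was not called either. At 1.98-fold (log2 -0.99, counting SE 0.64), its counts are too few to tell a small ratio from a large one.

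GC content moved with the ratio. Over the 43 members tested, the log2 ratio correlated with transcript GC content at Pearson r = 0.913 and Spearman rho = 0.944. Over 15664 genes with a GC value the same description gave 0.843 and 0.903. These are correlations across genes that share the same pair of libraries, and genes are not independent replicates. With transcript length, members gave r = -0.251 and rho = -0.300. GC content at the last codon position, which ran from 37.1 to 81.5% over these members, gave rho = 0.888.

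Of the 15 members of lowest GC content (37.9 to 45.4%), 0 were higher and 12 lower, with a median log2 ratio of -1.74. All 3761 genes tested in that GC range had a median of -1.61, and 84.7% of them were lower. The GC-poor members include Abcb1a, Abcg2, Abcd3 and Abce1, the 4 highest of library 1. Of the 14 members of highest GC content (54.3 to 59.9%), 14 were higher and 0 lower, with a median of 4.74, or 3.60 with Abcc8 and Abcg4 at their bounds. All 3562 genes in that range had a median of 3.23, and 91.3% of them were higher. The 14 in between (45.5 to 54.0%) had 3 higher and 3 lower, and a median of 0.12. All 7115 genes in that range had a median of 0.09, with 24.4% higher and 12.5% lower. The GC-poor members thus made up 86.6% of the family's TPM in library 1 and 55.0% in library 2, and the GC-rich members 5.40 and 32.1%.

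**Figure D3:**
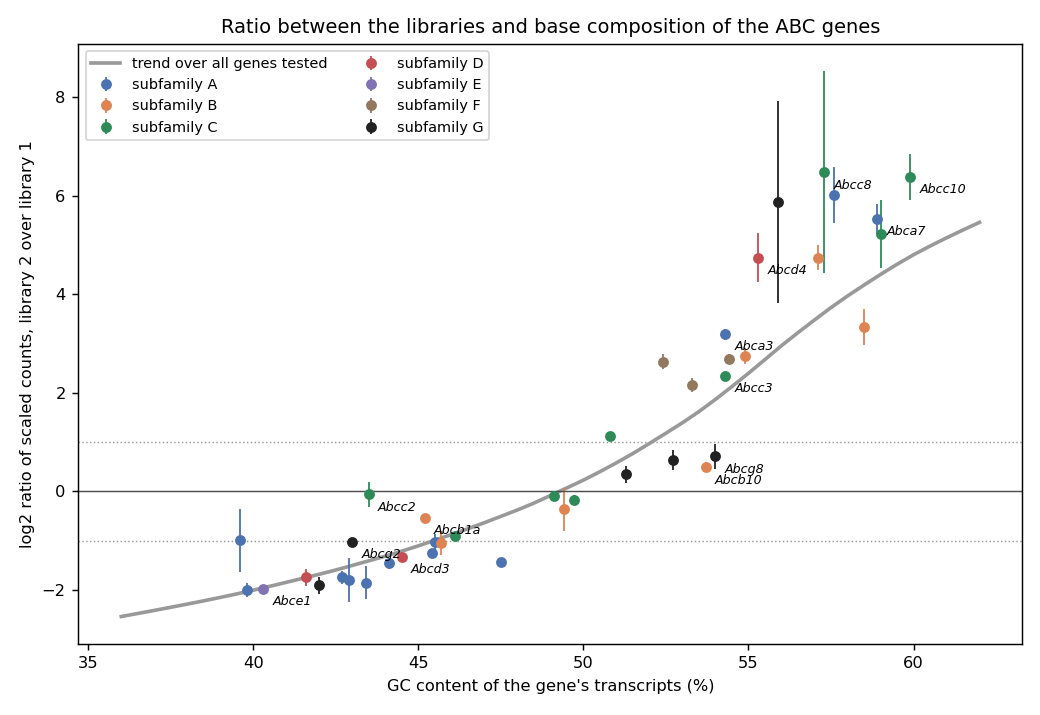
Log2 ratio of library 2 to library 1 (TMM-scaled counts) against transcript GC content in percent for 41 of the 43 members tested, coloured by subfamily, with counting SE as error bars, the trend over all genes tested as a grey line and dotted lines at 2-fold. Points rise from Abce1 at -1.98 on the GC-poor side to Abcc10 at 6.38 on the GC-rich side. Abcc8 and Abcg4 had 0 counts in library 1, so their points depend on the prior count.

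When the GC trend of all genes was taken off, 12.4% of all genes tested were called higher and 11.1% lower. Of the members, 8 were then higher and 2 lower. The 8 higher were Abca2, Abca3, Abca7, Abcb8, Abcc2, Abcc10, Abcd4 and Abcf3, and the 2 lower were Abcb10 and Abcg8. Abcc2 was at a log2 ratio of 1.35 and had not been called before. The other 7 of the higher members were called in the same direction in all 7 alternative settings, and 0 members were called lower in all of them. The share of all genes called in every setting was not counted, so these 7 cannot be set against a background. All settings use the same 2 libraries, and Abca2, Abcc10 and Abcd4 had only 6, 9 and 8 counts in library 1. With the trend taken off, Abca2 was at 2.25, Abcd4 at 2.20 and Abcc10 at 1.61, while Abce1 was at -0.02. What set the GC relation was not tested.

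**Figure D4:**
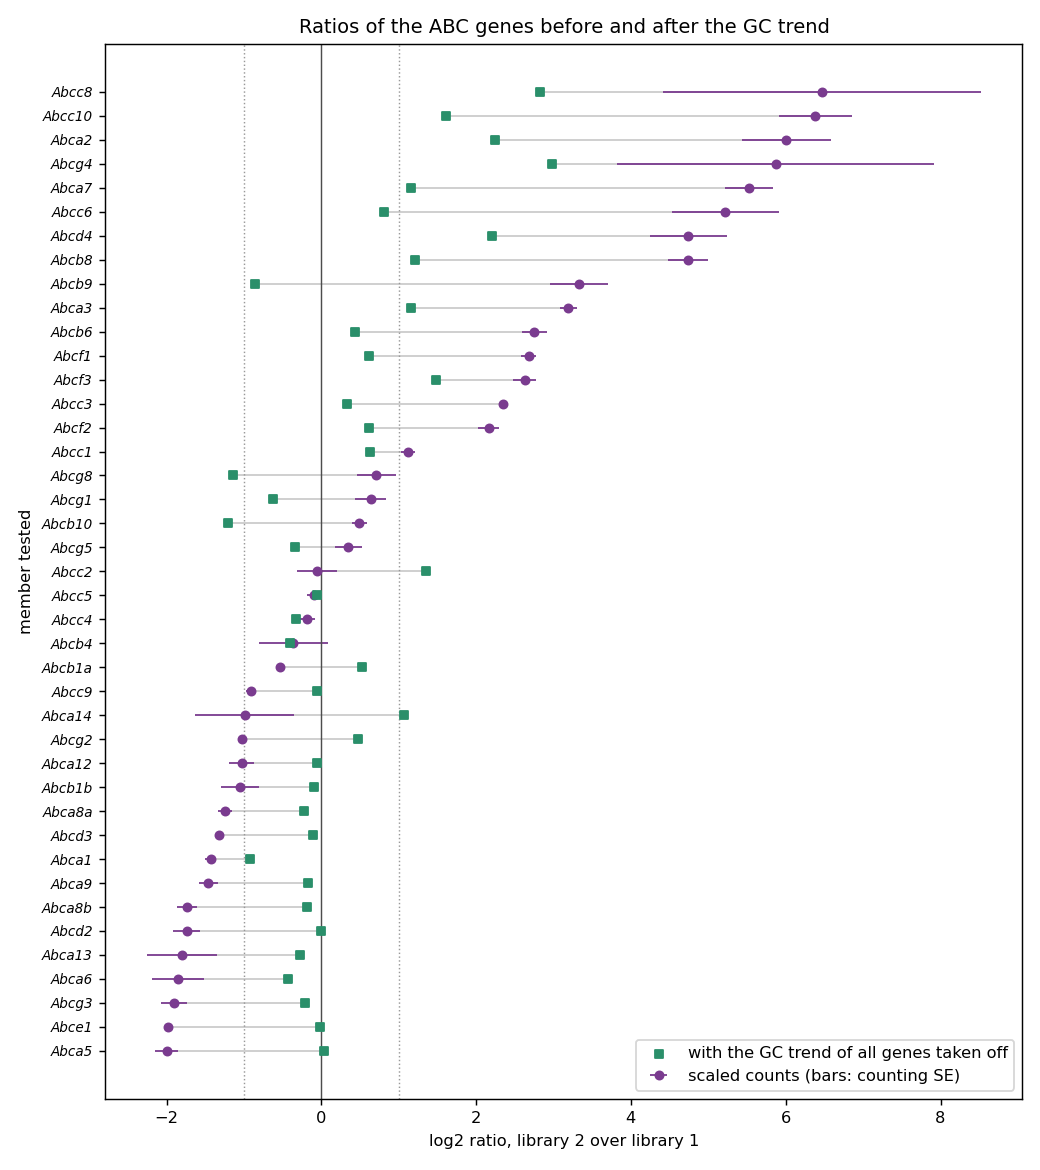
Log2 ratio of library 2 to library 1 for 41 of the 43 members before (circles, with counting SE) and after (squares) the GC trend of all genes was taken off. Dotted lines mark 2-fold. Abce1 moves from -1.98 to -0.02 and Abcc10 from 6.38 to 1.61.

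Ratios of the deposited TPM values, which carry no such scaling, put 22 members higher and 3 lower. These were 51.2 and 6.98% of the members tested, close to the 54.1 and 4.97% of all genes tested. On that scale the median of all genes rose to 1.24. Without any test, TPM was higher in library 2 for 33 members and lower for 14, but on the nuclear scale it was higher for 23 and lower for 25. Such untested splits were not counted over all genes, so they are no result about the family. Abcb1a, Abcg2 and Abcd3 show this: on the nuclear scale they were at 509, 264 and 288 in library 1 and at 343, 128 and 108 in library 2, all lower.

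Transcript shares within a gene do not depend on library scaling. Of the 21 members with a mean of at least 5 TPM, 15 had the same leading transcript in both libraries. These include Abcb10, Abcd3, Abce1 and Abcf2, which have 1 transcript each, so their leading transcript could not change. For Abcb1a the coding transcript Abcb1a-201 took 99.5 and 92.0% of the gene's TPM. Abcg2-202 took 86.5 and 84.0% of Abcg2, and Abcc3-206 took 59.6 and 56.9% of Abcc3. In these exporters, then, 1 coding transcript led in both libraries.

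Abcf1 changed its leading transcript. The full-length Abcf1-201 (3161 bases) took 16.8% in library 1 and 91.2% in library 2, and the short Abcf1-207 (376 bases) took 54.1 and 0%, from 32.9 expected counts. The authors' effective length of Abcf1 was accordingly 765 bases in library 1 and 2769 in library 2, and its log2 ratio was 2.00 by TPM and 2.68 by counts. Abcb6 behaved alike, with the 416-base Abcb6-206 at 55.4 and 12.2% from 8.25 and 9.76 counts. Abcc10 changed from Abcc10-202 (79.6% in library 1) to Abcc10-204 (73.2% in library 2), but it had 9 counts in library 1.

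In Abcc5, annotated coding transcripts took 4.25 and 20.4% of the gene's TPM. Retained-intron transcripts led it, with Abcc5-208 at 42.1 and 19.2% and Abcc5-207 at 23.7 and 20.1%. Its TPM is therefore mostly not a level of coding transcript. Abca8a-206, a processed transcript of 299 bases, went from 0 to 46.6% of Abca8a on 8.57 expected counts. In Abcb8 the coding share was 49.1 and 79.6%, and in Abca3 it was 43.5 and 94.3%. In Abcc5, Abcb8 and Abca3, transcripts not annotated as coding thus took more of the gene in library 1.

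**Figure D5:**
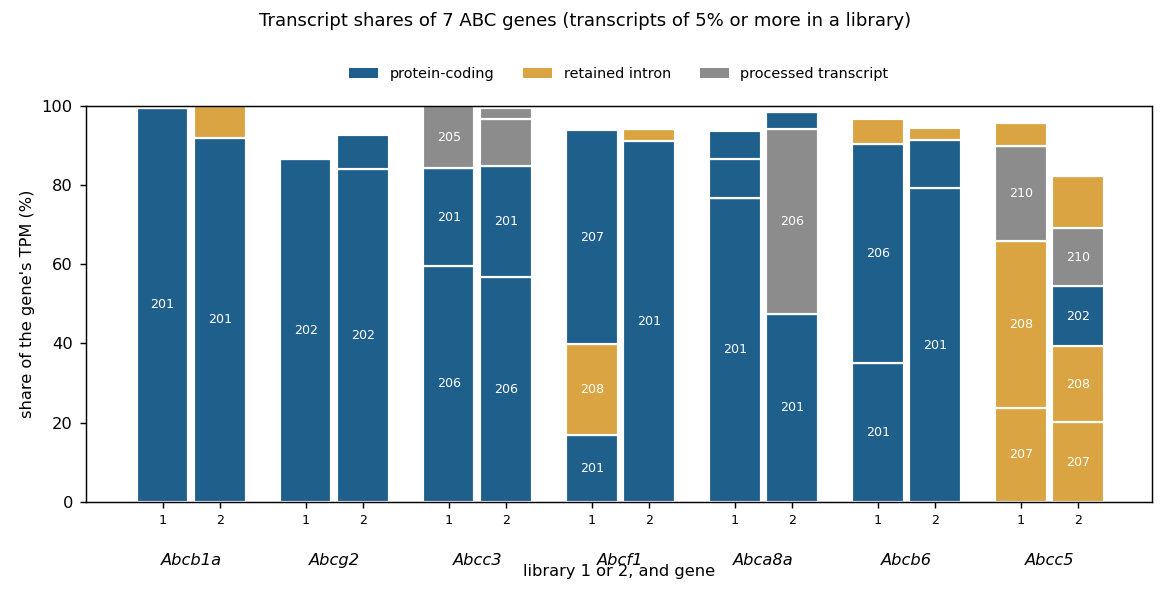
Transcript shares in percent of the gene's TPM for 7 members in library 1 and library 2, stacked and coloured by transcript type, for transcripts of 5% or more in a library; numbers are the last part of the transcript name. Abcb1a-201 fills 99.5 and 92.0% of its gene, and Abcf1-201 16.8 and 91.2%.

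Genes that work with the members were counted in lists chosen with earlier results of these data known. Cftr, the chloride channel of subfamily C, and Tap1 and Tap2, the peptide pumps of antigen presentation, belong to the family but carry other symbols. Cftr was at 73.30 and 45.18 TPM, which in library 1 would rank between Abcg2 and Abce1. Tap1 was at 1.30 and 20.07 TPM. Tap2 had 2 counts in library 1 and 845 in library 2, a ratio with a 95% counting interval from 86.6 to 2595. By the exact binomial test, Cftr was lower and both Tap genes were higher. Tap2 alone of these 3 was called once the GC trend was taken off.

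The lists are set against all genes tested, of which 36.9% were higher in library 2 and 28.1% lower. Of 13 tested sterol genes, 11 were higher in library 2 and 0 lower. They include Nr1h2 and Nr1h3, the liver X receptors that control Abca1, Abcg1, Abcg5 and Abcg8, at 1.34 and 80.13 TPM and at 0.14 and 15.63 TPM. Abca1 itself was lower, and Abcg1, Abcg5 and Abcg8 were not called. Abca1 lost its call once the GC trend was taken off (log2 -0.92), while Abcg8 became lower (log2 -1.14) and Abcg1 and Abcg5 stayed uncalled. With the GC trend taken off, 5 of the 13 were higher and 0 lower, against 12.4 and 11.1% of all genes tested. Of 12 tested xenobiotic genes, which include the sensors of drug pump substrates, 3 were higher and 4 lower. Once the GC trend was taken off, 2 of these 12 were higher and 0 lower. Nr1i2, the pregnane X receptor, was at 3.72 and 53.10 TPM, and Cyp2c55, a colonic cytochrome P450, at 1151.93 and 915.50 TPM.

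Of 4 tested bile acid genes, 1 was higher and 1 lower, against 36.9 and 28.1% of all genes tested. Slc51b, a subunit of the basolateral bile acid exporter, was at 12.20 and 25.62 TPM, while its partner Slc51a had 2 and 12 counts. Kcnj8, the pore that pairs with Abcc9, was at 1.83 and 12.06 TPM and was higher. Kcnj11, the pore that pairs with Abcc8, had 0 and 9 counts and was not tested. Kcnj8 was not called once the GC trend was taken off (log2 0.80), and 0 of the 4 bile acid genes were called in either direction.

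Of 14 genes of haem and iron-sulphur synthesis, 8 were higher and 1 lower, with Alas1, the rate-limiting haem enzyme, at 12.82 and 89.82 TPM. Of 12 peroxisomal genes, 4 were higher and 1 lower, with Pex14, part of the dock for proteins imported into peroxisomes, at 0.37 and 23.61 TPM. Of 9 tested genes of ribosome recycling and translation, 1 was higher and 7 lower, as Abce1 was, with the termination factor Etf1 at 62.03 and 45.39 TPM. Of 4 cobalamin genes, 2 were higher and 1 lower, with Tcn2, the cobalamin carrier of blood, at 0.72 and 73.69 TPM. With the GC trend taken off, the counts of these 4 lists were 3 higher, 0, 0 and 1 higher, and 0 lower in each. Over all genes tested, 36.9% were higher and 28.1% lower, or 12.4 and 11.1% with the trend taken off.

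Cell type markers moved between the libraries too. Of 10 epithelial markers, 6 were higher in library 2 and 2 lower, of 7 smooth muscle markers 7 were higher, and of 6 macrophage markers 4 were higher and 0 lower, against 36.9% higher and 28.1% lower over all genes. With the GC trend taken off, 3 epithelial markers were higher and 2 lower, 6 smooth muscle markers were higher, and 4 macrophage markers were higher. On the nuclear scale the epithelial markers summed to 5085 and 11842, the smooth muscle markers to 1046 and 6533, and the endothelial markers to 82.5 and 82.7. Most of the epithelial rise lay in Krt8 (194 and 3891) and Krt19 (108 and 2699), and Krt18, Vil1, Cldn7 and Cldn3 rose too. Epcam (1440 and 1268), Cdh1 (622 and 562), Tspan8 (1525 and 654) and Cdh17 (851 and 339) were lower in library 2. The sums were lower in library 2 for fibroblast markers (2000 and 1098), pericyte markers (459 and 147) and enteric neuron markers (61.6 and 50.6). The pericyte sum was mostly Rgs5 (451 and 106), while 4 of the 5 pericyte markers were called higher and 1 lower. With the GC trend taken off, 1 was higher and 1 lower. Of 6 fibroblast markers 2 were called higher and 2 lower, and of 5 enteric neuron markers 1 was higher and 2 lower. Hepatocyte markers summed to 39.6 and 75.7 and small intestinal markers to 14.6 and 103. The hepatocyte sum was mostly Cyp2e1 (26.6 and 21.9) and Ttr (10.8 and 48.4), while Serpina1a had 3 and 1 counts. The small intestinal sum was mostly Rbp2 (12.8 and 94.2), while Lct had 0 and 3 counts and Fabp6 had 4 and 23. Presence of either cell type was not tested. None of these lists had a marker with 0 counts in both libraries. The part of tissue makeup in the members' ratios was not tested.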

How the data were processed

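For each of the 2 technical libraries the authors deposited a gene table and a transcript table on mouse assembly mm10 with GENCODE M4, per the text files beside the tables. The aligner, the quantifier and the use of strand were not given in the sources used here. Per the file headers, the authors' expected counts are estimated counts shared out over transcripts by a model. The authors' TPM values are corrected for effective length, per the file headers. The authors' transcript shares are in percent of the gene, per the file headers.

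Symbols, types, positions and coding sequences are those of GENCODE M21 (GRCm38), in which 42462 of 43346 genes were found. Start windows are from RefSeq on GRCm38.p6, which held 38 of the 50 members. GC content was averaged over a gene's transcripts with TPM as weights. The members and the 9 partner and 16 marker lists were chosen with earlier results of these data known, and the rule fixed for naming lets every member be named. Some genes, 2 members among them, are not reported here by name. They remain in the counts, sums and fits.

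Expected counts were rounded and tested for genes with a mean of 10 or more. Since each side has 1 library, edgeR's quasi-likelihood test has no residual degrees of freedom, so a two-sided exact binomial test was used, given TMM effective library sizes (edgeR 4.0.16, R 4.3.3; a ratio of 1.35 for library 2 to library 1) and Benjamini-Hochberg adjustment. Ratios used a prior count of 0.5, and their SE covers counting only. The GC trend was a lowess with a fraction of 0.2 (statsmodels 0.14.6). Alternatives were DESeq2 1.42.0 size factors, other count filters, TPM ratios, GC and length trends taken off, other TPM totals, a lower detection level, posterior estimates and a 4-fold minimum. The script was tested on simulated counts.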

Additional observations from a re-analysis of the deposited data

How the results depend on the processing

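The family's summed TPM was 506 to 910 when either library was left out, and 1411 with nuclear protein-coding genes as the total. With mitochondrially encoded genes left out of the total, added after seeing the data, it was 973 and 29 members were detected in both libraries. The number detected was 24 to 37 when either library was left out. With the GC trend taken off, the number higher in library 2 was 8 and the number lower was 2. The number lower was 3 by TPM ratio and 2 at 4-fold or more, where fewer members can pass by construction. Over all genes tested, 4.97% were lower by TPM ratio and 7.42% at 4-fold or more. DESeq2 size factors kept all 43 members on the same side of the threshold and in the same direction. By TPM ratio, whose median over all genes lies 1.17 higher, log2 ratios reversed for Abca12 (0.07), Abca8a (0.64), Abcb1b (0.12), Abcc5 (1.19) and Abcg2 (0.22), and, called on neither scale, for Abcb1a (0.70), Abcb4 (0.81), Abcc2 (0.06), Abcc4 (0.97) and Abcc9 (0.26). With the GC trend taken off they reversed, among the members named here, for Abca5 (0.04), Abcb9 (-0.86), Abcb10 (-1.21), Abcc2 (1.35), Abcd2 (0.00), Abcg2 (0.48) and Abcg8 (-1.14), and, called in neither case, for Abca14 (1.07), Abcb1a (0.53), Abcg1 (-0.62) and Abcg5 (-0.34). There, 20 further members kept their direction but not their call. With the length trend taken off, the uncalled Abcc2 (0.30), Abcc4 (0.20) and Abcg5 (-0.17) changed sign. The cause was not tested. With the authors' posterior transcript shares, the leading share moved by more than the SD over the libraries in 8 of 21 members and did not in 13. These 13 include Abcb10, Abcd3, Abce1 and Abcf2, whose 1 transcript leaves the share fixed. Depth limits members under 10 counts in library 1, such as Abcc10, Abca2, Abcc6 and Abcd4. No paired analysis was possible because both libraries belong to 1 group.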
